A study of Mus musculus with 2 samples.

Results

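IL-2, IL-7 and IL-15 are cytokines that keep lymphocytes alive and set how far they expand, and they share receptor chains. Il2rg, the common gamma chain, is part of each of their receptors. Il2rb, the beta chain, pairs with it to bind IL-2 or IL-15. Il2ra, or CD25, adds high affinity for IL-2 and is a hallmark of regulatory T cells (Tregs). Il7r pairs with Il2rg to bind IL-7, the survival cytokine of resting T cells and innate lymphoid cells (ILCs). Il15ra holds IL-15 on the surface of myeloid cells and presents it to neighbouring lymphocytes that carry Il2rb and Il2rg. Each receptor signals through Jak1, Jak3 and STAT5.

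The 7 genes Il2, Il2ra, Il2rb, Il2rg, Il7r, Il15 and Il15ra, of 32228 genes in the deposited matrices, were chosen by name as the members of this receptor system. Their transcripts were followed in single CD45+ 7-AAD- cells of the colonic lamina propria (LP) from C57BL/6 mice of 8 to 10 weeks with DSS colitis, in which dextran sodium sulfate in the drinking water injures the colon. Both libraries shared strain, age range, DSS and sort. The WT library came from wild-type littermates and the library labelled Ring1AKO, written here as the Ring1AKO library, from Ring1a knockout mice crossed with C57BL/6 mice, Ring1a being a ubiquitin ligase subunit of polycomb repressive complex 1. Each was 1 library from pooled mice, so genotype and library cannot be told apart, no test between genotypes was possible, and every interval covers counting error only.

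After filtering, 6005 WT and 7918 Ring1AKO cells remained, with a median of 6354 and 5035 unique molecular identifiers (UMIs) per cell and 11 barcodes common to both libraries. Ring1 was at 13.4 CPM in WT and 11.8 CPM in Ring1AKO cells (log2 ratio -0.18, 95% interval -0.32 to -0.04), where CPM is the UMI count of a gene summed over cells and scaled to the same total in each class and library. The part of Ring1 that the knockout removes was not given in the sources used here, so 3′ tags need not check the label. Cells were sorted into 9 classes by raw marker UMIs, with no member gene in any gate, and 1297 WT and 1475 Ring1AKO cells met no gate. The 9 classes held 211 and 218 Foxp3 Tregs (WT and Ring1AKO), 448 and 354 other CD4 T cells, 324 and 295 CD8 T cells, 392 and 544 Cd7 cytotoxic lymphocytes, 53 and 29 NK cells, 153 and 79 ILC2, 47 and 46 ILC3, 183 and 154 dendritic cells, and 619 and 175 monocytes. Marker lists left out of the gates were highest in their own class in both libraries for Tregs, CD8 T cells, NK cells, ILC2, ILC3, dendritic cells and monocytes, while the CD4 T list was higher in Tregs and the Cd7 list in NK cells and monocytes. The Cd7 class was mostly T cells, since 90.1% and 87.9% of its cells held at least 2 CD3 UMIs, and it is called here by its gate (CD7 innate-like in the plots). B cells, neutrophils and macrophages were kept as comparison classes.

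Ring1AKO and WT were compared as log2 ratios of CPM, with a fixed limit of 0.5 either way among genes with at least 50 UMIs in the class. Past that limit lay 38.3% of all genes in Foxp3 Tregs, 24.5% in other CD4 T cells, 24.6% in CD8 T cells, 22.3% in Cd7 lymphocytes, 27.7% in NK cells, 33.3% in ILC2, 30.7% in ILC3, 29.6% in dendritic cells and 32.8% in monocytes. Of 36 member and class pairs with enough UMIs, 4 were past the limit upward and 7 downward, a share close to that background. The median of all genes was shifted by -0.12 in CD8 T cells, -0.18 in dendritic cells and -0.18 in monocytes. These shares and medians were not computed for the comparison classes or for cells outside every gate. Relative to the median of each class, 5 pairs were past the limit upward and 3 downward. The share of all genes past the limit after that shift was not computed, so these 2 counts have no background beside them.

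**Figure D1:**
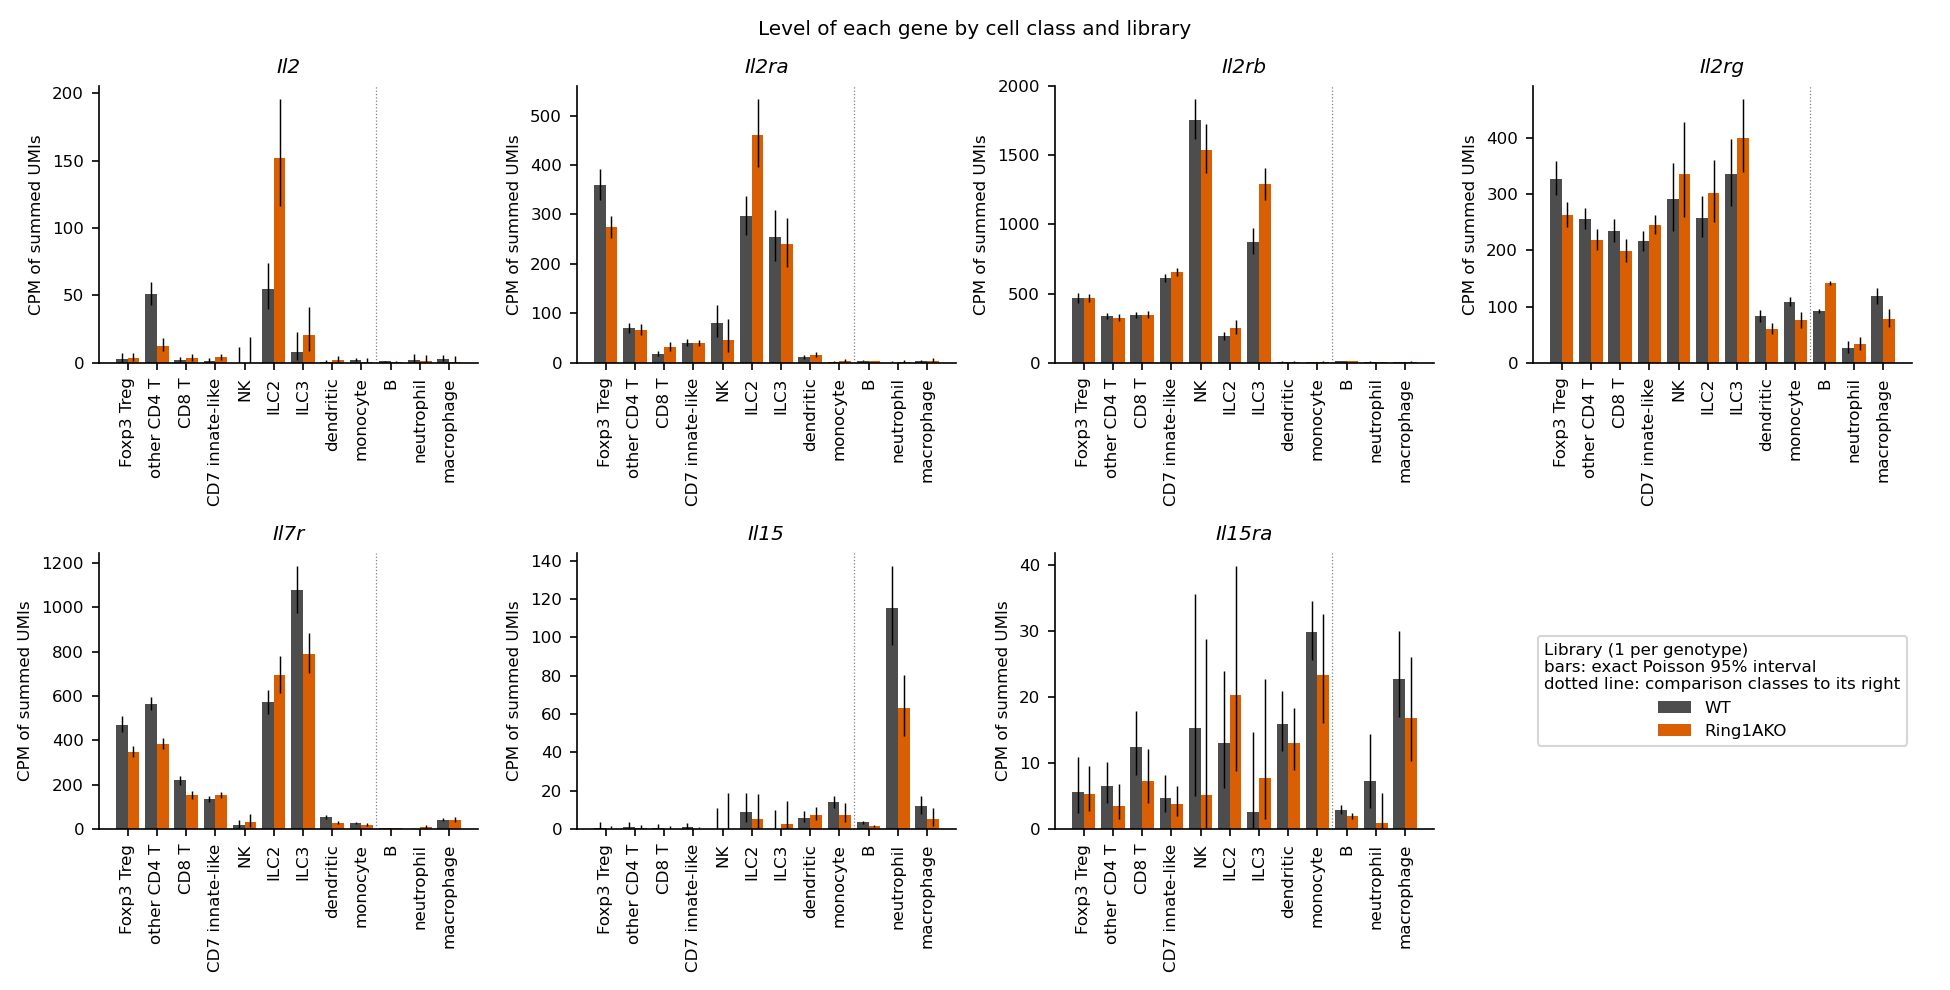
Level of each of the 7 genes by cell class, in CPM of summed UMIs on a linear axis from 0, in the WT (dark grey) and Ring1AKO (orange) libraries, with exact Poisson 95% intervals as thin lines. Il2ra stood highest in Foxp3 Tregs, ILC2 and ILC3, Il2rb in NK cells, Il7r in ILC3, and Il15 in neutrophils.

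The windows before the RefSeq starts of 3 receptor genes are printed because these chains carry the class patterns described next. RefSeq (GRCm38.p6) held a window for 5 members and none for 2, Il2rb and Il15. Capitals mark the letters TTCNNNGAA, the palindromic core that STAT5 binds, or AANNGAAA on either strand, a core of interferon regulatory factor sites. TTCNNNGAA was found in the 250 bases before the start of 7.02% of 32851 RefSeq promoters and AANNGAAA in 21.3%. Stretches are shown outside annotated exons. A match is a description of letters only.

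Il2ra, chr2:11642542-11642791, plus strand: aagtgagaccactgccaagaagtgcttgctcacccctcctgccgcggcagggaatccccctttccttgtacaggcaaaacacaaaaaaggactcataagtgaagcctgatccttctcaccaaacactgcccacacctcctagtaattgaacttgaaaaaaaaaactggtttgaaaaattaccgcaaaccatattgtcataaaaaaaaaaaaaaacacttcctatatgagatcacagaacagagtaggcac

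Il15ra, chr2:11705043-11705289, plus strand: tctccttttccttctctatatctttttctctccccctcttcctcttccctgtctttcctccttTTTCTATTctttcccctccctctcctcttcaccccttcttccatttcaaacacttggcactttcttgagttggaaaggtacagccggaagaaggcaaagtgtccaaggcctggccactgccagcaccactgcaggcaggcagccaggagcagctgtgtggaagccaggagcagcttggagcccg

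Il7r, chr15:9529877-9530040, minus strand: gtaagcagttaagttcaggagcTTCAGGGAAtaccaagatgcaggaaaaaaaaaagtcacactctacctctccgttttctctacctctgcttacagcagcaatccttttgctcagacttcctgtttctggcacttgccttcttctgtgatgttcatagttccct

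The Il7r stretch lies inside the gene as GENCODE annotates it, between exons, because the RefSeq start used lies further downstream. The Il7r window held 1 TTCNNNGAA match and the first Il15ra window 1 AANNGAAA match, read on the opposite strand, while neither set of letters was in the Il2ra window. Il2ra and Il15ra are neighbours on chromosome 2 of GRCm38 in the same direction, with 12.1 kb between them.

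Il2 (ENSMUSG00000027720, chr3:37120523-37125959, minus strand, GRCm38) encodes the T cell growth factor. Among the 9 classes its level was highest in other CD4 T cells and ILC2 in WT and in ILC2 and ILC3 in Ring1AKO. ILC3 held 7.92 and 20.8 CPM on 3 and 8 UMIs. Other CD4 T cells held 51.1 CPM in WT (interval 43.2 to 60) and 12.6 CPM in Ring1AKO (8.44 to 18.1). That is 148 against 29 UMIs, a log2 ratio of -1.98 (-2.65 to -1.44). ILC2 went the other way, from 54.8 CPM (39.5 to 74.1) to 152 CPM (116 to 196), a log2 ratio of 1.46 (0.88 to 2.08) on 42 and 60 UMIs.

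Few cells carried these UMIs. In other CD4 T cells 28 WT and 21 Ring1AKO cells had any Il2 UMI, 6.25% (4.19 to 8.91) and 5.93% (3.71 to 8.93) of the class. The shares of Il2-positive cells overlapped, and the difference lay in the UMIs per positive cell. The 5 highest cells held 70.9% of the WT and 44.8% of the Ring1AKO UMIs. In ILC2, 11.1% of WT and 10.1% of Ring1AKO cells had an Il2 UMI, and the 5 highest held 66.7% and 93.3% of the UMIs. Without the 5 highest cells of each class and library, the log2 ratio was -1.03 (-2.01 to -0.23) in other CD4 T cells and -0.60 (-2.88 to 0.85) in ILC2. With every gate minimum raised by 1 UMI, it was -0.21 (-1.09 to 0.57) in other CD4 T cells. Ikzf2 and Ctla4 were on the Treg marker list, but neither was confined to Tregs. Ctla4 was at 1059 and 982 CPM in other CD4 T cells, and Ikzf2 was highest in Cd7 lymphocytes (1466 and 1100 CPM). Only 107 of 448 WT and 79 of 354 Ring1AKO other CD4 T cells had neither Ikzf2 nor Ctla4 UMIs. In these cells the Il2 log2 ratio was -3.32 (-5.54 to -2.20). The Il2 value in other CD4 T cells thus kept its direction but ranged widely with the choice of cells. The higher Il2 level of Ring1AKO ILC2 was thus carried by at most 5 cells.

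**Figure D2:**
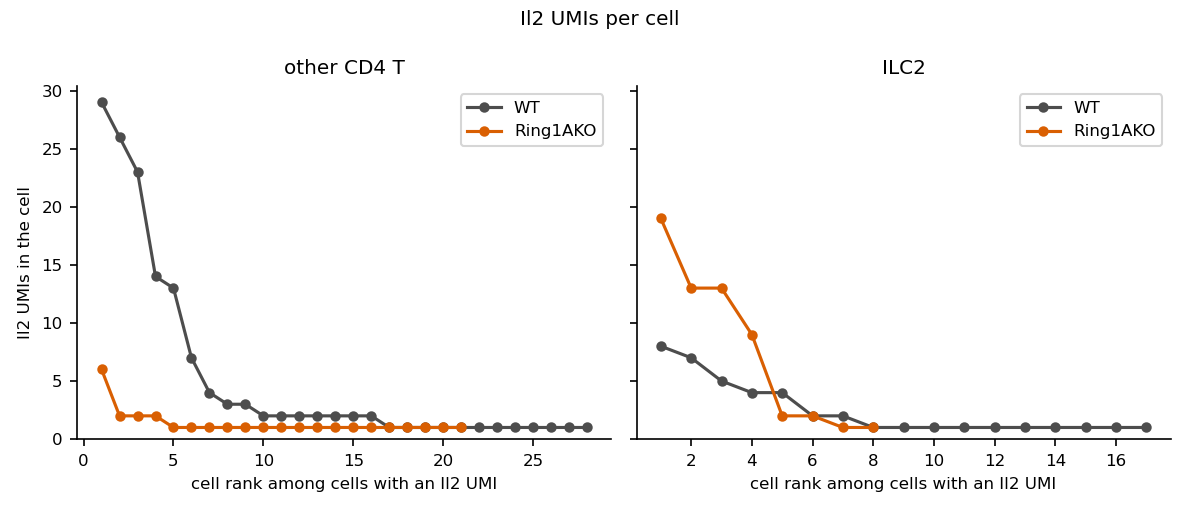
Il2 UMIs in each cell that held any, ranked from highest, in other CD4 T cells (left) and ILC2 (right), WT in dark grey and Ring1AKO in orange. The highest WT CD4 T cell held 29 UMIs and the highest Ring1AKO CD4 T cell 6, while in ILC2 the highest cells held 8 and 19.

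Cells outside every gate held 50.8% of all WT Il2 UMIs and 32.5% of the Ring1AKO ones. There Il2 was at 18.2 CPM in WT and 5.89 CPM in Ring1AKO, a log2 ratio of -1.62 (-1.997 to -1.27). The 5 highest of these cells held 56.0% and 51.2% of their Il2 UMIs. NK cells held no Il2 UMI in either library, and a floor of 3 counts would be 9.18 CPM in WT and 15.5 CPM in Ring1AKO. Foxp3 Tregs, whose Foxp3 protein represses Il2, held 2.79 and 3.43 CPM. B cells, which should lack it, had an Il2 UMI in 1.13% (WT) and 0.724% (Ring1AKO) of cells at median depths of 5454 and 4518 UMIs. The cell-free profile held 15.6 CPM in WT and 9.65 CPM in Ring1AKO.

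Il2ra (ENSMUSG00000026770, chr2:11642807-11693193, plus strand) was highest in Foxp3 Tregs, ILC2 and ILC3. Tregs held 360 CPM in WT (330 to 393) and 274 CPM in Ring1AKO (252 to 298). ILC2 held 296 CPM (259 to 337) and 461 CPM (397 to 533), and ILC3 held 253 and 239 CPM. In WT the Treg and ILC2 intervals overlapped, and in Ring1AKO ILC2 stood above Tregs with no overlap. The log2 ratio was -0.40 (-0.57 to -0.22) in Tregs, 0.64 (0.35 to 0.93) in ILC2 and -0.08 (-0.51 to 0.35) in ILC3. Of these 3 the ILC2 value was past the limit of 0.5, and it was 0.38 (0.03 to 0.72) with the exclusion markers at 0 UMIs and 0.34 (-0.41 to 1.02) after thinning each cell to 1000 UMIs. The Treg value was past the limit, at -0.61, as a mean over cells and after thinning. Beside the ILC2 values here and for the other members, the ILC3 marker list summed to 1354 CPM in WT and 887 CPM in Ring1AKO ILC2, with all 4 genes detected, and its gene Il17f was at 753 and 43.1 CPM. The ILC2 list summed to 2014 and 2283 CPM there, and the part of these markers in the results was not tested.

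The share of Tregs with an Il2ra UMI was 65.9% (59.1 to 72.2) in WT and 63.3% (56.5 to 69.7) in Ring1AKO, and after thinning it was 26.1% (20.3 to 32.5) and 19.7% (14.7 to 25.6). In ILC2 the share was 41.2% (33.3 to 49.4) and 64.6% (53 to 75), or 17.6% (12 to 24.6) and 27.8% (18.4 to 39.1) after thinning. The intervals of the ILC2 shares were apart before thinning and overlapped after it, and those of Tregs overlapped either way. B cells, as background, had an Il2ra UMI in 2.66% (WT) and 1.84% (Ring1AKO) of cells. The Il2ra log2 ratio was -0.53 (-0.74 to -0.32) in Tregs with an Ikzf2 UMI, Ikzf2 being the transcription factor Helios. In those without, the ratio was -0.08 (-0.42 to 0.29). These intervals overlapped, so the split does not place the lower Treg level in either group. Beside the lower level, Ikzf2 itself was at 1154 CPM in WT and 631 CPM in Ring1AKO Tregs. Foxp3 was at 527 and 385 CPM and Ctla4 at 2849 and 2858 CPM. The part of these 3 genes in the result was not tested. Tregs with an Ikzf2 UMI were 77.7% of the class in WT and 70.2% in Ring1AKO.

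CD8 T cells held 17.8 CPM of Il2ra in WT (12.7 to 24.2) and 32.0 CPM in Ring1AKO (24.5 to 41), a log2 ratio of 0.84 (0.25 to 1.46) on 40 and 62 UMIs. The ratio was 0.68 (-0.05 to 1.46) without the 5 highest cells of each library. Other CD4 T cells held 70.4 and 66.9 CPM, and those with neither Ikzf2 nor Ctla4 UMIs 22.7 and 49.8 CPM. The Cd7 lymphocytes held 40.0 and 39.4 CPM. Within the Cd7 class, Il2ra was far higher in cells with fewer than 2 CD3 UMIs, 172 and 203 CPM, than in those with more, 26.0 and 19.3 CPM. In dendritic cells the level was 10.9 and 15.0 CPM, and it lay in mature cells with Ccr7, Fscn1 and Ccl22 UMIs (23.5 and 31.4 CPM), with 1 UMI in WT and 0 in Ring1AKO in the Xcr1 and Clec9a cells. Monocytes held 1.67 and 2.75 CPM.

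Il2rb (ENSMUSG00000068227, chr15:78479256-78495271, minus strand) was highest in NK cells, ILC3 and Cd7 lymphocytes. Of the lymphoid classes, ILC2 held the least in both libraries. NK cells held 1757 CPM in WT and 1539 CPM in Ring1AKO, in 52 of 53 and 28 of 29 cells. ILC3 followed with 877 CPM (785 to 976) and 1291 CPM (1179 to 1409). Cd7 lymphocytes held 610 and 655 CPM, Foxp3 Tregs 467 and 468 CPM, CD8 T cells 344 and 345 CPM, other CD4 T cells 337 and 326 CPM, and ILC2 192 and 253 CPM. In WT only CD8 and other CD4 T cells overlapped as neighbours in this order above the myeloid classes. In Ring1AKO NK cells and ILC3 also overlapped, as did other CD4 T cells with CD8 T cells and with ILC2. Dendritic cells and monocytes held 4.68 to 7.18 CPM, where cell-free RNA alone would give up to 3.98 CPM in monocytes.

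Il2rb differed little between the libraries in T cells. In the 3 T cell classes the log2 ratios lay between -0.05 and 0.01, with intervals within -0.19 to 0.16. NK cells gave -0.19 (-0.40 to 0.01). The exception past the limit was ILC3, at 0.56 (0.35 to 0.76), a fold of 1.47 on 332 and 496 UMIs. It was 0.26 (-0.05 to 0.57) with every gate minimum raised by 1 UMI and 1.03 (0.84 to 1.23) when up to 3 UMIs of exclusion markers were allowed. Beside it, the WT ILC3 class held 665 CPM of the epithelial markers Epcam, Krt8 and Krt19 against 10.4 CPM in Ring1AKO, and Ccr7 was at 119 and 474 CPM, and their part in the result was not tested. ILC2 gave 0.41 (0.02 to 0.78). The NK class in Ring1AKO, 29 cells, held 320 CPM of Ccr7 against 6.12 CPM in WT, and of Ctla4 238 against 39.8 CPM, and their part in the NK values was not tested. Within the Cd7 class, cells with fewer than 2 CD3 UMIs held 1007 and 1142 CPM of Il2rb and the others 568 and 595 CPM.

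Il2rg (ENSMUSG00000031304, chrX:101264378-101268255, minus strand) was the most evenly spread chain. The 7 lymphoid classes lay between 217 and 335 CPM in WT and between 199 and 401 CPM in Ring1AKO. Dendritic cells (82.7 and 60.8 CPM) and monocytes (108 and 75.5 CPM) were lower than each lymphoid class in both libraries. Its intervals lay below 0 in 5 classes and above 0 in 1. These were Foxp3 Tregs (-0.32, -0.50 to -0.13), other CD4 T cells (-0.23, -0.40 to -0.06), CD8 T cells (-0.24, -0.44 to -0.05), dendritic cells (-0.44, -0.74 to -0.15), monocytes (-0.51, -0.83 to -0.23), and Cd7 lymphocytes above (0.18, 0.02 to 0.33). The median of all genes was below 0 in each class, and the share of all genes with such intervals was not counted. Only monocytes passed the limit, and relative to the median of their genes the value was -0.33. In Tregs the value was 0.16 (-0.34 to 0.67) with each cell thinned to 1000 UMIs. B cells held 91.8 and 141 CPM, a log2 ratio of 0.62 (0.55 to 0.69). These levels came from 2176 UMIs in 1766 WT cells and 5258 UMIs in 4141 Ring1AKO cells. Beside this ratio, Jchain, a plasma cell gene, was at 42899 and 28840 CPM in the B class, and its part in the result was not tested. No share or median of all genes was computed for B cells.

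**Figure D3:**
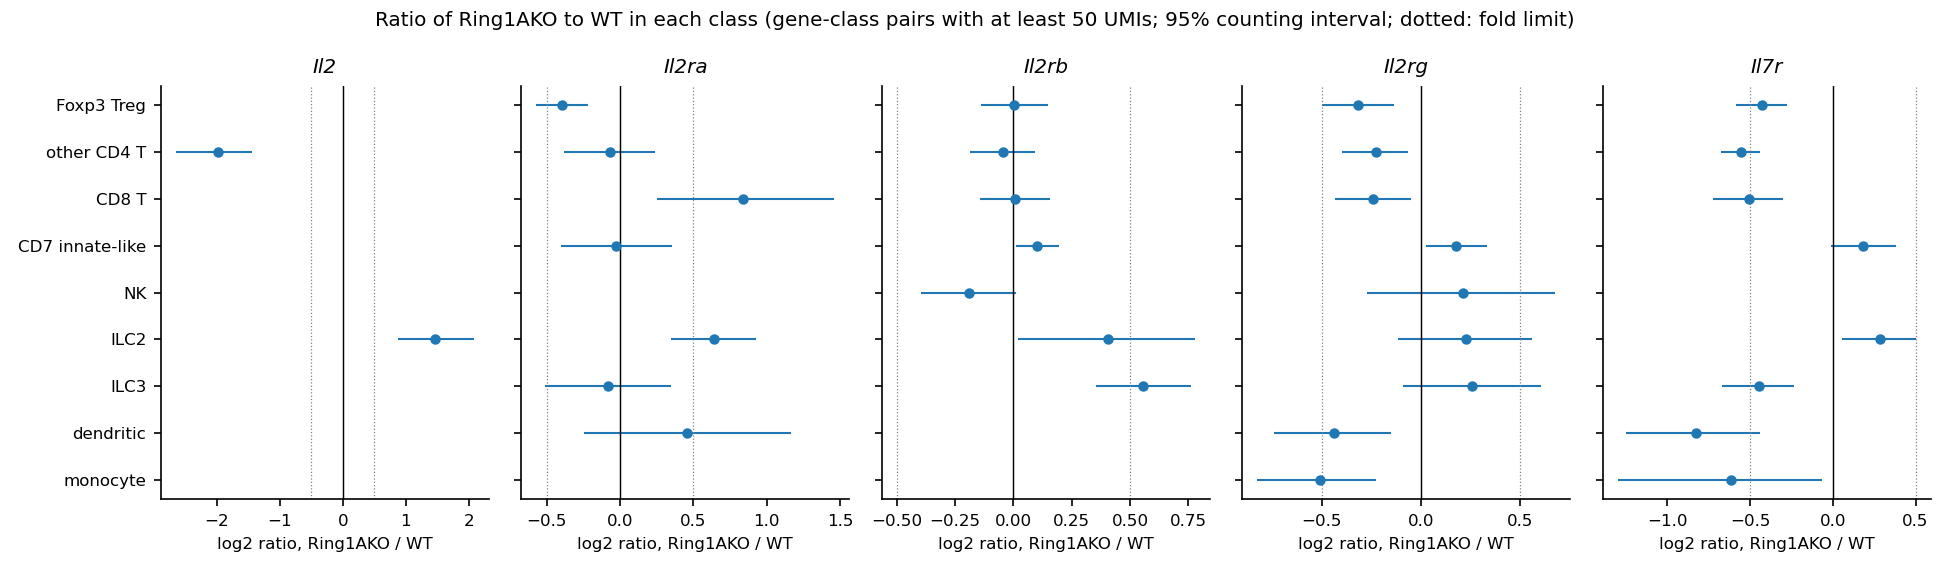
Log2 ratio of Ring1AKO over WT for Il2, Il2ra, Il2rb, Il2rg and Il7r in each class with at least 50 UMIs of the gene, with 95% counting intervals as lines, 0 as a solid line and the limits of 0.5 as dotted lines. Axes differ between genes. Il2 lies at -1.98 in other CD4 T cells and 1.46 in ILC2, and Il7r lies below 0 in 6 classes. The median of all genes was below 0 in each class.

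Il7r (ENSMUSG00000003882, chr15:9505788-9530176, minus strand) was highest in ILC3 and ILC2 and in CD4 T cells, and low in NK cells. ILC3 held 1077 CPM in WT (975 to 1187) and 788 CPM in Ring1AKO (702 to 882). ILC2 held 572 CPM (519 to 628) and 694 CPM (615 to 782). Other CD4 T cells held 566 CPM (539 to 594) and 384 CPM (360 to 411), and Foxp3 Tregs 471 and 350 CPM. In WT, ILC2 and other CD4 T cells did not differ beyond their intervals, and in Ring1AKO ILC3 and ILC2 did not. CD8 T cells held 220 and 154 CPM, Cd7 lymphocytes 137 and 155 CPM, and NK cells 18.4 and 31.0 CPM on 6 UMIs each.

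The counting intervals of the Il7r ratio lay below 0 in 6 classes and above 0 in 1. The median of all genes was also below 0 in each class, and the share of all genes with such intervals was not counted. The log2 ratios were -0.56 (-0.68 to -0.44) in other CD4 T cells, -0.51 (-0.72 to -0.30) in CD8 T cells, -0.43 (-0.58 to -0.28) in Tregs and -0.45 (-0.67 to -0.23) in ILC3. They were -0.83 (-1.25 to -0.44) in dendritic cells and -0.61 (-1.30 to -0.07) in monocytes, and 0.28 (0.06 to 0.50) in ILC2. Relative to the median of all genes, dendritic cells alone stayed past the limit, at -0.65. The share of cells with an Il7r UMI was 61.6% (56.9 to 66.1) and 59.9% (54.6 to 65) in other CD4 T cells and 73.0% (66.5 to 78.8) and 77.1% (70.9 to 82.5) in Tregs, overlapping in both classes.

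Several of these Il7r values moved with the choice of cells. In other CD4 T cells with neither Ikzf2 nor Ctla4 UMIs, Il7r was at 527 and 470 CPM, a log2 ratio of -0.16 (-0.43 to 0.10). Beside the lower Il7r of the whole class, Ccr7, a receptor for homing to lymph nodes, was at 170 CPM in WT and 402 CPM in Ring1AKO cells, and its part in the result was not tested. In Tregs the ratio was -0.14 as a mean over cells of each cell's CPM and 0.06 (-0.32 to 0.44) with cells thinned to 1000 UMIs. In CD8 T cells it was -0.11 (-0.67 to 0.44) and in monocytes 0.14 (-2.13 to 1.57) after the same thinning. In ILC3 it was 0.08 (-0.13 to 0.29) when up to 3 UMIs of B cell, macrophage and mast cell markers were allowed.

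In dendritic cells Il7r lay in mature cells (87.7 and 53.7 CPM) and in the remaining cells outside the Xcr1 and Clec9a group (69.6 and 23.7 CPM), with 0.899 and 2.12 CPM in the latter group. In the Cd7 class, Il7r was at 479 and 591 CPM in cells with fewer than 2 CD3 UMIs and at 101 and 102 CPM in the others. These 39 WT and 66 Ring1AKO cells thus held more Il2ra, Il2rb and Il7r by CPM than the T cells of the class.

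Il15 (ENSMUSG00000031712, chr8:82331632-82403222, minus strand) was at its highest levels in myeloid cells. Neutrophils, monocytes, dendritic cells and macrophages held 57.0% of its UMIs in WT and 47.2% in Ring1AKO, and B cells, at 3.50 and 1.59 CPM, held 18.6% and 27.6%. Among the 9 classes it was highest in monocytes in WT, 14.0 CPM (11.2 to 17.4), and was at 7.55 CPM (3.77 to 13.5) in Ring1AKO monocytes. The log2 ratio of -0.79 (-1.95 to 0.02) rested on 84 and 11 UMIs, and relative to the median of monocyte genes it was -0.60. It was 0.24 (-3.45 to 2.15) after thinning. Dendritic cells held 5.93 and 7.50 CPM on 19 UMIs each. In T, NK and Cd7 classes there were 0 to 4 UMIs of Il15 per class and library. ILC2 held 9.14 CPM (3.67 to 18.8) in WT on 7 UMIs and 5.07 CPM (0.614 to 18.3) in Ring1AKO on 2. In WT this was above dendritic cells by CPM. The ILC2 intervals overlapped those of monocytes and dendritic cells in both libraries.

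The highest Il15 level was outside the 9 classes, in neutrophils, the comparison class that carries 28.2% of WT and 30.4% of Ring1AKO Il15 UMIs. Neutrophils held 115 CPM in WT (96.1 to 137) and 63.2 CPM in Ring1AKO (48.7 to 80.5), a log2 ratio of -0.86 (-1.32 to -0.43) on 126 and 65 UMIs. An Il15 UMI was found in 36.6% and 23.2% of neutrophils, and in 10.4% and 7.39% after thinning. Macrophages held 11.9 and 5.06 CPM. Of monocytes, macrophages and neutrophils, the interval excluded 0 in neutrophils alone. In B cells the log2 ratio was -1.14 (-1.65 to -0.64). No share or median of all genes was computed for neutrophils, macrophages or B cells, so these ratios have no background beside them. Over all cells the log2 ratio was -1.22 (-1.46 to -0.98), beside B cells that made up 29.4% of WT and 52.3% of Ring1AKO cells.

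Il15ra (ENSMUSG00000023206, chr2:11705290-11734317, plus strand), which presents IL-15, was highest in monocytes, 29.9 CPM in WT (25.7 to 34.6) and 23.3 CPM in Ring1AKO (16.2 to 32.6), a log2 ratio of -0.32 (-0.93 to 0.18). Macrophages held 22.8 and 16.9 CPM. Dendritic cells held 15.9 and 13.03 CPM, of which mature cells had 27.1 and 25.6 CPM and the Xcr1 and Clec9a cells 3.60 and 1.06 CPM. Lymphoid classes held Il15ra too. NK cells held 15.3 and 5.16 CPM on 5 and 1 UMIs, and ILC2 13.1 and 20.3 CPM on 10 and 8. CD8 T cells held 12.4 and 7.23 CPM on 28 and 14 UMIs. In WT the intervals of these lymphoid classes overlapped that of dendritic cells. In Ring1AKO, ILC2 stood above dendritic cells by CPM, and its interval overlapped those of dendritic cells and monocytes. The monocyte class held 818 CPM of the macrophage markers Apoe, Cd63 and Mrc1 in WT and 2978 CPM in Ring1AKO, and their part in the monocyte ratios was not tested. In neutrophils, where Il15 was highest, Il15ra was at 7.32 CPM in WT and 0.972 CPM in Ring1AKO on 8 and 1 UMIs. In none of the 9 classes did the interval of the Il15 or Il15ra ratio exclude 0. Il15 and Il15ra were found together in 19 of 619 WT monocytes, 3.07% (1.86 to 4.75), and in 1 of 175 Ring1AKO monocytes, 0.571% (0.0145 to 3.14).

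Receptor chains act as complexes, so their presence in the same cell was counted. Droplet counts are sparse and these shares are lower limits. All 3 chains of the high-affinity IL-2 receptor, Il2ra, Il2rb and Il2rg, were found in 59.6% of WT and 67.4% of Ring1AKO ILC3 and in 47.4% and 52.3% of Foxp3 Tregs. In ILC2 the share was 19.6% (13.6 to 26.8) and 32.9% (22.7 to 44.4). NK cells had 18.9% and 17.2%, other CD4 T cells 12.5% and 11.6%, CD8 T cells 5.25% and 9.83%, and Cd7 lymphocytes 9.95% and 8.46%. In B cells, as background, it was 0.396% and 0.362%. ILC3 were also the deepest lymphoid class, at a median of 7271 and 7747 UMIs per cell. After thinning to 1000 UMIs the Treg share was 3.79% and 3.67%, and the 3 chains were found in 1 of 47 WT ILC3, 2.13% (0.0539 to 11.3), and 0 of 46 Ring1AKO ILC3 (0 to 7.71), so an order of ILC3 against Tregs was not detectable at that depth. The intervals of the libraries overlapped in each class named here.

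**Figure D4:**
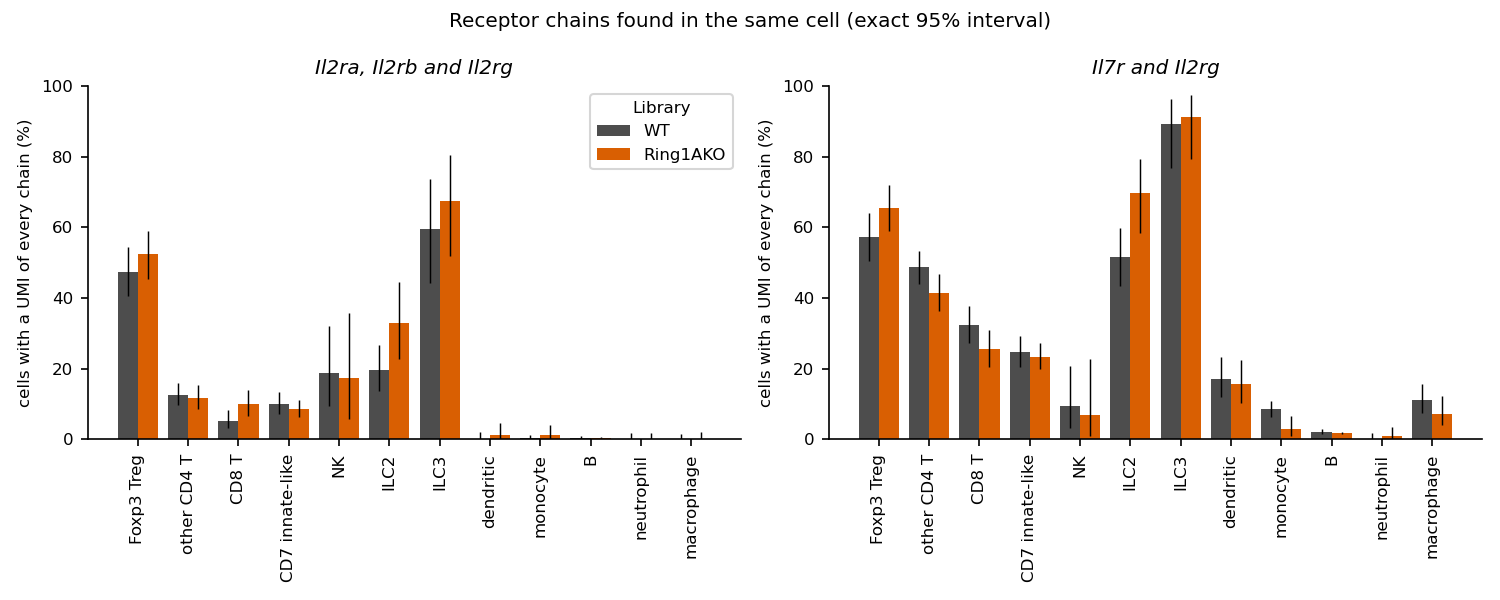
Share of cells with a UMI of each chain of the high-affinity IL-2 receptor (left) and of the IL-7 receptor (right), in percent, by class and library, with exact Clopper-Pearson 95% intervals. Cells were not thinned here, and ILC3, the deepest lymphoid class, led both panels, at 59.6% and 67.4% on the left and 89.4% and 91.3% on the right.

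The intermediate receptor, Il2rb with Il2rg, was found in 81.1% and 89.7% of NK cells, 83.0% and 93.5% of ILC3, and 68.1% and 64.3% of Cd7 lymphocytes. The IL-7 receptor, Il7r with Il2rg, was found in 89.4% and 91.3% of ILC3, 57.3% and 65.6% of Tregs, and 48.7% and 41.5% of other CD4 T cells. Il2ra and Il7r, which flow cytometry uses to tell Tregs from other T cells, were in the same cell in 51.7% of WT and 51.4% of Ring1AKO Foxp3 Tregs. In ILC2 that share was 37.3% (29.6 to 45.4) in WT and 62.0% (50.4 to 72.7) in Ring1AKO, with no overlap, and 9.80% and 11.4% after thinning.

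Other genes of the pathway were taken from a list of 23 chosen by role, namely ligands, partner chains, kinases, STATs and STAT5 targets. Of 140 gene and class pairs with enough UMIs, 21 were higher and 12 lower past the limit in Ring1AKO. By class, 5 of 16 were past the limit in Foxp3 Tregs (38.3% of all genes), 4 of 20 in other CD4 T cells (24.5%), 3 of 17 in CD8 T cells (24.6%), 2 of 17 in Cd7 lymphocytes (22.3%), 2 of 13 in NK cells (27.7%), 5 of 14 in ILC2 (33.3%), 5 of 13 in ILC3 (30.7%), 1 of 16 in dendritic cells (29.6%) and 6 of 14 in monocytes (32.8%), where the counts add both directions. Of all genes, more were past the limit downward than upward in each class, from 17.4% against 13.3% in ILC3 to 25.5% against 7.39% in monocytes, and the median of all genes was below 0 in each.

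Among ligands, Il21, a product of helper T cells, was at 40.7 CPM in WT and 12.6 CPM in Ring1AKO other CD4 T cells (log2 ratio -1.66, -2.33 to -1.10). Il4, whose receptor also uses Il2rg, was at 650 and 565 CPM in ILC2. Il7, Il9 and Tslp had too few UMIs. Among partner chains, Crlf2, which pairs with Il7r to bind TSLP, was above 0 in 9 of 9 classes and past the limit in 5. The Crlf2 interval lay above 0 in 7 of these 9. How many of all genes had such intervals, or the same sign in each class, was not counted. In other CD4 T cells Crlf2 was at 67.3 and 124 CPM (0.88, 0.62 to 1.16). So in those cells Il7r was lower and its TSLP partner higher in the Ring1AKO library.

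The shared kinase Jak1 was below 0 in 9 of 9 classes with none past the limit, and Stat5b was below 0 in 8 of 8 with 3 past it. The interval lay below 0 in 5 of the 9 classes for Jak1 and in 3 of the 8 for Stat5b, beside the median of all genes, which was also below 0. Stat5b was at 222 and 145 CPM in Foxp3 Tregs (-0.62, -0.85 to -0.39). For Jak3, the kinase bound by Il2rg, the interval excluded 0 in 1 of 7 classes, monocytes (0.76, 0.15 to 1.31). Among STAT5 targets that feed back on cytokine signals, Socs3 was above 0 in 8 of 8 classes and past the limit in 3. The Socs3 interval lay above 0 in 4 of these 8. Socs1 differed by class, at 80.4 and 185 CPM in other CD4 T cells (1.20, 0.97 to 1.44) and at 60.3 and 10.98 CPM in monocytes (-2.37, -3.28 to -1.74). Bcl2, a survival gene downstream of IL-7, was at 94.0 and 165 CPM in ILC2 (0.81, 0.30 to 1.31) and at 309 and 190 CPM in ILC3 (-0.69, -1.14 to -0.27). In the other classes with lower Il7r the Bcl2 ratios went both ways. They were 0.54 (0.01 to 1.13) in Foxp3 Tregs and 0.37 (0.14 to 0.60) in other CD4 T cells. In CD8 T cells the Bcl2 ratio was -0.03 (-0.27 to 0.21) and in dendritic cells -0.45 (-1.19 to 0.23). Monocytes had too few Bcl2 UMIs. The Bcl2 interval lay above 0 in 3 of 8 classes and below 0 in 2. For the class counts of Jak1, Stat5b, Jak3, Socs3 and Bcl2, the share of all genes meeting the same rule was not counted. Cish, a direct STAT5 target, was at 198 and 163 CPM in Tregs (-0.28, -0.51 to -0.04), within the limit. The Cish ratio was past the limit upward in NK cells (0.94, 0.17 to 1.73) and downward in monocytes (-0.54, -0.93 to -0.20).

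**Figure D5:**
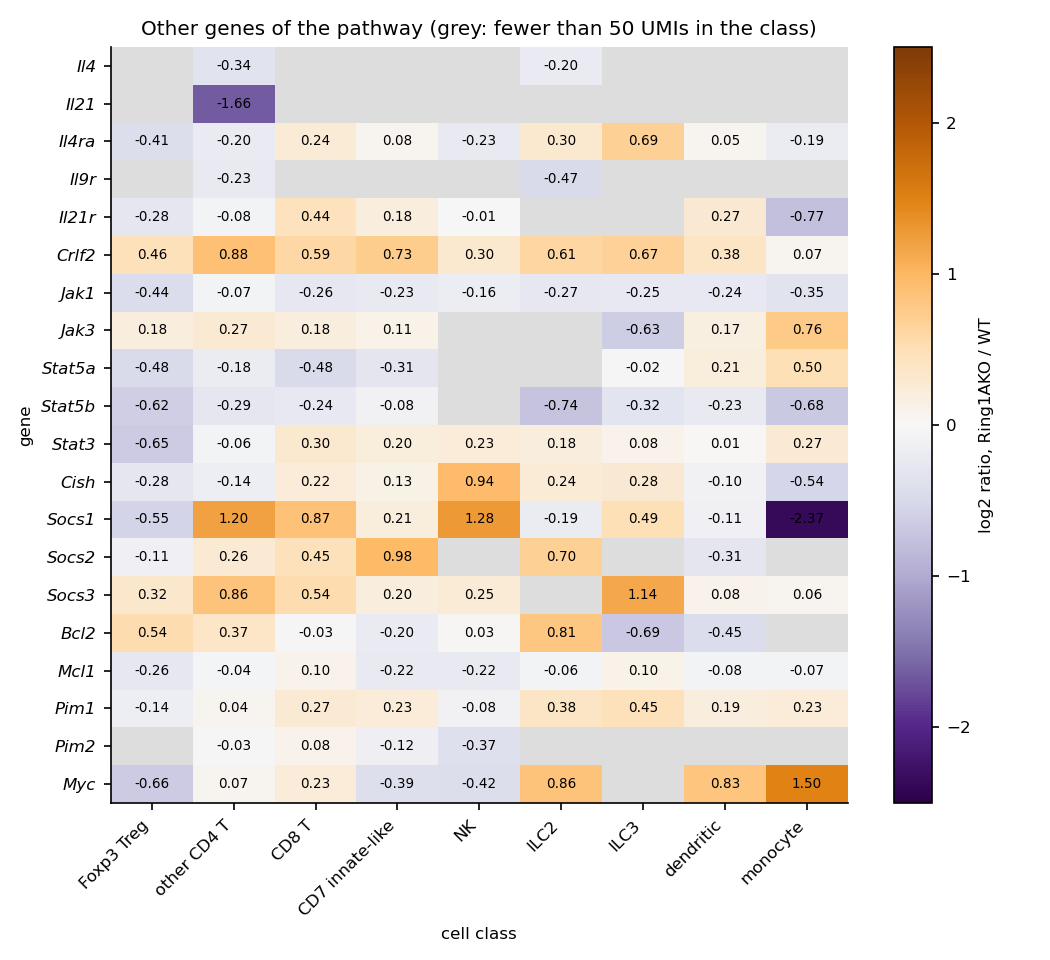
Log2 ratio of Ring1AKO over WT for the other genes of the pathway (rows) in the 9 classes (columns), with grey where a gene had fewer than 50 UMIs in the class. Crlf2 is above 0 in each class and Jak1 below 0 in each, and Socs1 runs from 1.28 in NK cells to -2.37 in monocytes. How many of all genes keep the same sign in each class was not counted.

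Over the 18 class and library points, Il2rb and Il2rg were the closest pair of members (Pearson r = 0.93), followed by Il15 and Il15ra (r = 0.80), and Il2rb and Il15 ran opposite (r = -0.82). Points of the same library or class share depth and cells, so these values describe class patterns only. Il15 lay between 0 and 14.0 CPM over these points, beside the 10 CPM added before taking logs. The r values of Il15 thus rest on low levels. Among 4211 other genes, the pattern of Il2 was most like Spry1 (r = 0.90), Abhd17c and Il4. That of Il2ra was most like Nrip1 (r = 0.95), Tmem154 and Epas1. Il2rb was closest to Txk (r = 0.97), Ptbp1 and Dgat1, and Il2rg to D16Ertd472e (r = 0.96), Tecpr1 and Dgat1. Il7r was closest to Tnfrsf25 (r = 0.93), Xlr4a and Nebl, Il15 to Plk2 (r = 0.92), Lpcat2 and Zfp36, and Il15ra to Rapgef2 (r = 0.87), Snx10 and Osm.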

How the data were processed

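Single-cell RNA-seq (10x Genomics 3′ chemistry) of 1 WT and 1 Ring1AKO library was analysed from the matrices the authors deposited, whose values are raw UMI counts per gene and barcode. The submitters' processing notes name Cell Ranger 6.0.2, mm39 and Seurat, the matrix headers name Cell Ranger 4, and the paper's methods name another version with mm10, so the build was not settled. Matrices held 74414511 (WT) and 81862096 (Ring1AKO) UMIs. Coordinates are from GENCODE vM21 (GRCm38) and were not read from the matrices.

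Barcodes with at least 1000 UMIs, at least 500 genes and under 5% mitochondrial UMIs were kept. Doublets were not called, but barcodes that met more than 1 gate (74 WT and 26 Ring1AKO) were left out and a limit on genes per cell was an alternative. Gates used raw UMIs of CD3, Foxp3, Cd4, Cd8b1, Gata3, Cd7, NK, ILC, dendritic and monocyte markers, with at most 1 UMI of B cell, macrophage or mast cell markers in lymphoid gates. Of cells in no gate, 518 WT and 686 Ring1AKO cells held at least 2 CD3 UMIs, of which 112 and 321 also held B cell markers. UMIs were summed per class and library and given as CPM with exact Poisson 95% intervals. Log2 ratios used sums with 1 UMI added and an exact conditional binomial interval, and shares used Clopper-Pearson intervals, also after thinning cells to 1000 UMIs. Cell-free RNA was profiled in barcodes under 100 UMIs, and its share of a class was taken from Jchain. All intervals cover counting error only. Scripts ran in Python 3.11.15 with numpy 2.4.6, scipy 1.17.1 and pandas 2.3.3 and were tested on simulated data. The splits by Ikzf2 or CD3 UMIs and of dendritic cells (mature, at least 3 UMIs of Ccr7, Fscn1 and Ccl22, then Xcr1 and Clec9a cells, at least 2 UMIs of these) were chosen after their values were seen.

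Named genes were the 7 members, a pathway list of 23 genes by role, and, for each member, the 3 genes with the highest Pearson r of log2(CPM + 10) over classes and libraries, among genes of at least 50 CPM in a class of each library. The members and lists were chosen with earlier results of these data known. Some markers and the splits that used them are not reported here.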

Additional observations from a re-analysis of the deposited data

Results flagged for a closer look

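For 4 members the Ring1AKO to WT ratio lay on opposite sides of 0 in different cell classes, counting intervals included. With 1 library per genotype the difference between classes was not tested. How many of all genes would meet the same rule was not counted, so the rule does not set the members apart. For Il2, the log2 ratio was 1.46 in ILC2 and -1.98 in other CD4 T cells, a gap of 3.44. For Il2ra it was 0.84 in CD8 T cells and -0.40 in Foxp3 Tregs, a gap of 1.23. For Il7r it was 0.28 in ILC2 and -0.83 in dendritic cells, a gap of 1.11. For Il2rg it was 0.18 in Cd7 lymphocytes and -0.51 in monocytes, a gap of 0.69. The Il2 gap rested on few cells, since the 5 highest cells held 66.7% to 93.3% of the ILC2 UMIs. Without the 5 highest cells of each class and library the ratios were -0.60 in ILC2 and -1.03 in other CD4 T cells, both below 0. The ILC2 interval then included 0. Only 17 WT and 8 Ring1AKO ILC2 held an Il2 UMI, so leaving out 5 took most of the Ring1AKO ones.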

How the results depend on the processing

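No paired analysis was possible because each genotype had 1 library, and no replicate could be left out. Of 682 ratios of members recomputed under alternatives, 646 stayed within the counting interval, 31 moved out of it and 5 turned direction from a main value whose interval excluded 0. An alternative covered up to 61 member and class pairs, of which 36 had at least 50 UMIs. Sparse pairs had wide intervals that a ratio could hardly leave, such as -7.29 to 1.67 for Il15 in other CD4 T cells. The 646 is thus no measure of robustness, and the 36 pairs were not counted apart. Counted without regard to the interval, 50 of the 682 had the other sign. The cause was not tested. With every gate minimum raised by 1 UMI, the other CD4 T ratio was -0.21 for Il2 and -0.76 for Il7r. As a mean over cells, the ratio was -0.61 for Il2ra in Tregs and -0.34 for Il7r in other CD4 T cells. With cells thinned to 1000 UMIs, which leaves few UMIs of any member, it was -0.61 for Il2ra, 0.16 for Il2rg and 0.062 for Il7r in Tregs and 0.14 for Il7r and 0.24 for Il15 in monocytes. Thinning also left Il2ra in 26.1% (WT) and 19.7% (Ring1AKO) and the 3 IL-2 receptor chains in 3.79% and 3.67% of Tregs. Past the limit then lay 13 pathway pairs higher and 5 lower. The pairs with enough UMIs after thinning, and the share of all genes past the limit, were not counted. These pathway counts thus have no background and cannot be set against those without thinning.

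Further alternatives were chosen after seeing the data. With up to 3 UMIs of exclusion markers the Il7r ratio in ILC3 was 0.084. Without the 5 highest cells the Il2 ratio was -1.03 in other CD4 T cells and -0.60 in ILC2. Requiring Ikzf2 and Ctla4 at 0, planned for levels and extended to ratios, gave other CD4 T ratios of -3.32 for Il2 and -0.16 for Il7r. The levels then were 122 CPM of Il2 in WT, and in WT and Ring1AKO 22.7 and 49.8 CPM of Il2ra, 182 and 174 CPM of Il2rb, 527 and 470 CPM of Il7r and 0 and 0 CPM of Il15, with 3.50 CPM of Il15ra in WT. Depth limits Il15 and Il15ra most, with 0 to 28 UMIs per lymphoid class and library.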
